A study of Mus musculus with 9 samples.

Results

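The 10 genes described here are 7 immediate early genes (Fos, Fosb, Jun, Junb, Egr1, Atf3 and Nr4a1) and 3 heat shock genes (Hspa1a, Hspa1b and Dnajb1), named as genes whose RNA responds to tissue handling. They were found by symbol among the 54146 rows of the gene table, each in 1 row, and all 10 passed the filter on low values that left 14410 genes for testing. RNA-seq was performed on colonic mucosa of 9 C57BL/6J mice at 15 wk of age. The controls were 5 ApcMin/+ mice, of which 2 were female. They were compared with 4 mice of the genotype ApcMin/+; p16cis/cis, of which 3 were female (p16cis/cis mice below). Both groups carry the Min allele of the tumor suppressor Apc, and the p16cis/cis mice also carry on both copies of p16 an inserted element that attracts promoter methylation. Neither allele is restricted to a tissue, so every cell type of the mucosa carries them, and the methods name colonic crypts as the source of the RNA. Levels are normalized counts, that is the reads of a gene scaled by the library's size factor, and each mouse is 1 replicate. In bulk tissue, fewer cells of a type and less RNA per cell cannot be told apart.

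Immediate early genes are switched on within minutes by growth factors, stretch or stress, without new protein synthesis, through kinases that act on transcription factors already bound at their promoters. Their products are mostly transcription factors themselves, the Fos and Jun proteins forming the dimer AP-1, and their mRNAs are short-lived. Heat shock genes encode chaperones that hold or refold damaged proteins, and are induced by Hsf1 when unfolded proteins accumulate. Both groups are known to rise in tissue that is warmed, dissociated or left standing between excision and lysis.

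Both Hsp70 genes were higher in p16cis/cis mice, and the other 8 genes did not pass the test. Hspa1a was 5.73-fold higher and Hspa1b 4.19-fold higher, with no overlap between the genotypes, whereas Dnajb1 and the 7 immediate early genes overlapped. The immediate early genes differed more between mice of 1 genotype than between the genotypes, and rose and fell together from mouse to mouse. A call here needed a Benjamini-Hochberg adjusted p under 0.05 and a fold change over 2 in limma on log2(normalized count + 1). By that rule 2 of the 10 genes were called, both higher, against 3.48% of all genes tested. The same 2 genes had an adjusted p under 0.05, against 16.9% of all genes tested, and non-overlapping ranges, against 16.2%. All 10 estimates were above 0, as were 7149 of the 14410 genes tested. Their median log2 fold change was 0.38, beside -0.0041 over all genes tested. The 10 are not separate results, because the immediate early genes moved together and the Hsp70 pair can share reads. Estimates of Junb, Atf3 and Dnajb1 fell below 0 in some other settings.

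**Figure D1:**
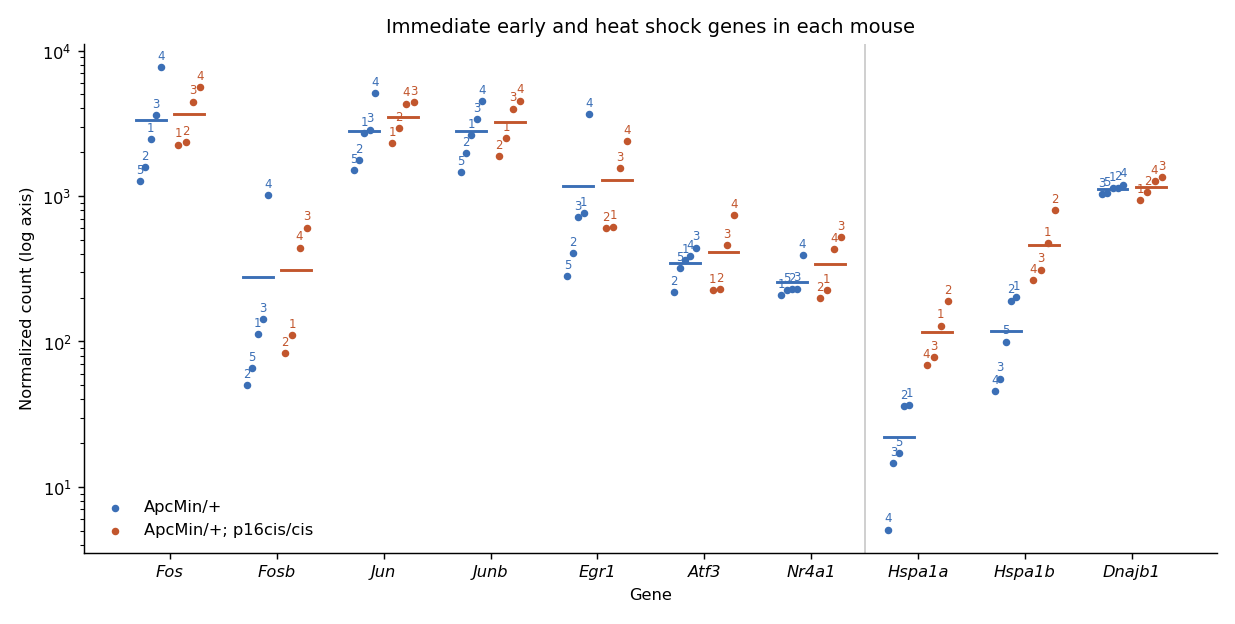
Normalized count (log axis) of each gene in each mouse, ApcMin/+ in blue and ApcMin/+; p16cis/cis in orange, with the replicate number above each point and the arithmetic mean of the genotype as a bar. Hspa1a and Hspa1b are the only genes of the 10 whose points do not overlap between genotypes.

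Some measures of the libraries moved with genotype as well. Reads on genes ranged from 13523500 to 17885918 per mouse and were fewer in every p16cis/cis mouse than in any ApcMin/+ mouse (p = 0.00794 by exact permutation, two-sided, n = 5 and 4, the smallest p this design allows). The mitochondrially encoded share of reads averaged 12.0% ± 2.87 (SD) over the 5 ApcMin/+ mice and 24.2% ± 4.41 (SD) over the 4 p16cis/cis mice, also without overlap. Cdkn2a, the gene of p16, was listed at 0 in all 9 mice, so it gave no check of the genotype labels. The summed level of 14 epithelial markers, Epcam, Vil1 and Car1 among them, was 395008 to 662280 in ApcMin/+ mice and 392396 to 454172 in p16cis/cis mice. Of these 14, Slc26a3, an ion exchanger of surface colonocytes, was lower (log2 fold change -1.23, limma adjusted p = 0.00848), as was the enteroendocrine marker Chga (-0.69, 0.0373), and 9 of the 14 estimates were below 0. Epcam did not pass (log2 fold change -0.38, limma adjusted p = 0.0938). Its range in p16cis/cis mice, 24444 to 26913, still lay below that in ApcMin/+ mice, 27841 to 38616. The 11 smooth muscle and fibroblast markers summed to only 291 to 952 and 152 to 424, lower in p16cis/cis mice (p = 0.0317, exact permutation, two-sided), and no marker of any list was at 0 in all mice. Summed markers of endothelium, T cells, B and plasma cells, macrophages and neutrophils overlapped between genotypes, with exact permutation p from 0.127 to 0.802. Single markers were lower all the same, Lyz2 of macrophages (log2 fold change -1.56, limma adjusted p = 0.00745) and Jchain of plasma cells (-2.65, 0.0175). All 6 B and plasma cell estimates were below 0. Of 8 macrophage estimates 6 were below 0 and 2 above, Cd68 (0.85, limma adjusted p = 0.0903) and Cd14 (0.38, 0.129). Cd14 supplied most of the macrophage sum and Ly6g most of the neutrophil sum. Of the 6 endothelial markers only 1, Vwf, had a higher mean in p16cis/cis mice (133 against 93.3), and it was the largest part of that sum. Pecam1 averaged 74.5 in ApcMin/+ mice and 38.0 in p16cis/cis mice (log2 fold change -0.92, limma adjusted p = 0.0766). Cdh5, below the filter, was 1.27 to 23.8 in ApcMin/+ mice and 0 in every p16cis/cis mouse. The part of these cells in the results below was not tested.

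Hspa1a and Hspa1b encode the 2 forms of stress-inducible Hsp70, the chaperone that binds unfolded stretches of protein. Both lie on the minus strand of chromosome 17 in GRCm38 and have 1 exon, Hspa1a (ENSMUSG00000091971.3) from 34969190 to 34972156 and Hspa1b (ENSMUSG00000090877.3) from 34956436 to 34959238. Their transcripts of 2967 and 2803 bases were identical at 93.6% of 2735 aligned bases, and 47.1% of the 100-base stretches of Hspa1a occur unchanged in Hspa1b, so reads could be split between them by the counting. The RefSeq sequences of the 250 bases before each start site are shown because the pair differed between genotypes together. They span chr17:34972157-34972406 and chr17:34959239-34959488 (GRCm38.p6, minus strand, 5′ to 3′), and capitals mark the match to GAANNTTC, an inverted pair of the GAA units from which heat shock elements are built.
Hspa1a: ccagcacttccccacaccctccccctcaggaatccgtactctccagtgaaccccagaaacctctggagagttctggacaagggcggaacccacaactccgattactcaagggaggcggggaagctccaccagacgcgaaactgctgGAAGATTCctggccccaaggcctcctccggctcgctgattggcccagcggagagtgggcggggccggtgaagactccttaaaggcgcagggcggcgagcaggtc
Hspa1b: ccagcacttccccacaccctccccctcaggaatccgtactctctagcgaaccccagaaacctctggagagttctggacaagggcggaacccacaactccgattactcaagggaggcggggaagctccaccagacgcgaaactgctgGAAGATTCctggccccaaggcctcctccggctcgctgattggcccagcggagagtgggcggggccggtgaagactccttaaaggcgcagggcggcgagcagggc
The windows were identical at 247 of 250 bases (98.8%), and the marked match lies from 104 to 97 bases before the start in both. The search took GAANNTTC and TTCNNGAA on both strands and matched 12.8% of the 32851 windows of this length in the table, with Jun as the only other match among the 9 genes that have a window there. The longer element of 3 units, GAANNTTCNNGAA or TTCNNGAANNTTC, which contains the pair, was in 0 of these 9 genes and in 0.466% of all windows. Only exact letters were searched, so an element with a mismatched unit would have been missed.

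Hspa1a stood at 36.8, 36.1, 14.6, 5.08 and 17.0 normalized counts in ApcMin/+ mice 1 to 5, and at 129, 190, 78.1 and 68.9 in p16cis/cis mice 1 to 4. Every p16cis/cis mouse lay above every ApcMin/+ mouse, p16cis/cis replicate 2 being the highest and ApcMin/+ replicate 4 the lowest. The low end rested on few reads, since the 5 ApcMin/+ libraries held 33, 38, 15, 4 and 15 reads of the gene and the p16cis/cis libraries 102, 119, 52 and 44. The means were 21.9 ± 14.0 (SD, n = 5) and 116 ± 55.6 (SD, n = 4). The log2 fold change was 2.52 with an SE of 0.52 (limma adjusted p = 0.00945), a 5.73-fold difference with a 95% interval from 2.63 to 12.5. The exact permutation test over mice gave p = 0.00794 (two-sided, n = 5 and 4), the smallest the design allows.

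Hspa1b followed the same order of mice at higher levels. It stood at 202, 191, 55.6, 45.8 and 99.9 normalized counts in ApcMin/+ mice 1 to 5, and at 476, 799, 313 and 265 in p16cis/cis mice 1 to 4. The genotypes did not overlap, ApcMin/+ replicate 1 lying closest below p16cis/cis replicate 4. The log2 fold change was 2.07 with an SE of 0.46 (limma adjusted p = 0.0127), a 4.19-fold difference with a 95% interval from 2.09 to 8.39 (exact permutation test, two-sided, p = 0.0238, n = 5 and 4). With the reads of both genes summed, so that a split between them could not matter, the log2 fold change was 2.15 with an SE of 0.46 (limma adjusted p = 0.011). Hspa1a made up 15.3% ± 3.86 (SD) of that sum over the 5 ApcMin/+ mice and 20.3% ± 0.90 (SD) over the 4 p16cis/cis mice (p = 0.0397, exact permutation, two-sided).

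The difference in the Hsp70 pair was also set beside sex and the mitochondrial share. Within females, Hspa1a was 36.8 and 17.0 in ApcMin/+ mice against 190, 78.1 and 68.9 in p16cis/cis mice. Within males it was 36.1, 14.6 and 5.08 against 129 in the only p16cis/cis male. The genotypes did not overlap over all 9 mice, so they could not overlap within a sex, and this order is no separate test. In the 5 females alone the log2 fold changes were 1.96 for Hspa1a and 1.50 for Hspa1b, and neither passed (limma adjusted p = 0.0541 and 0.0842). With the mitochondrial share added to the model they were 1.58 and 0.77 (limma adjusted p = 0.852 and 0.908), and 0 of the 14410 genes passed in limma in that fit (798 at an unadjusted p under 0.05). Genotype takes 78.1% of the variance of the share. Genotype and mitochondrial share therefore cannot be told apart in these 9 mice. ApcMin/+ replicate 1, with the highest share of its genotype (15.6%), and p16cis/cis replicate 2, with the highest of all (29.8%), also had the highest Hspa1a of their genotypes, but p16cis/cis replicate 1 had the lowest share of its genotype (19.3%) and its next highest Hspa1a. A gene annotated on the opposite strand, Gm20481, shares 564 exon bases with Hspa1a, and the sources used here do not state whether counting used strand.

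Dnajb1 encodes an Hsp40 cochaperone that delivers unfolded protein to Hsp70 and starts its ATP cycle. It stood at 1134, 1144, 1030, 1197 and 1045 normalized counts in ApcMin/+ mice 1 to 5, and at 936, 1064, 1342 and 1259 in p16cis/cis mice 1 to 4. The p16cis/cis range enclosed the ApcMin/+ range, and the spread within ApcMin/+ mice was only 1.16-fold. The log2 fold change was 0.04 with an SE of 0.12 (limma adjusted p = 0.849), and its 95% interval, 0.861-fold to 1.23-fold, ends below where those of Hspa1a and Hspa1b begin.

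**Figure D2:**
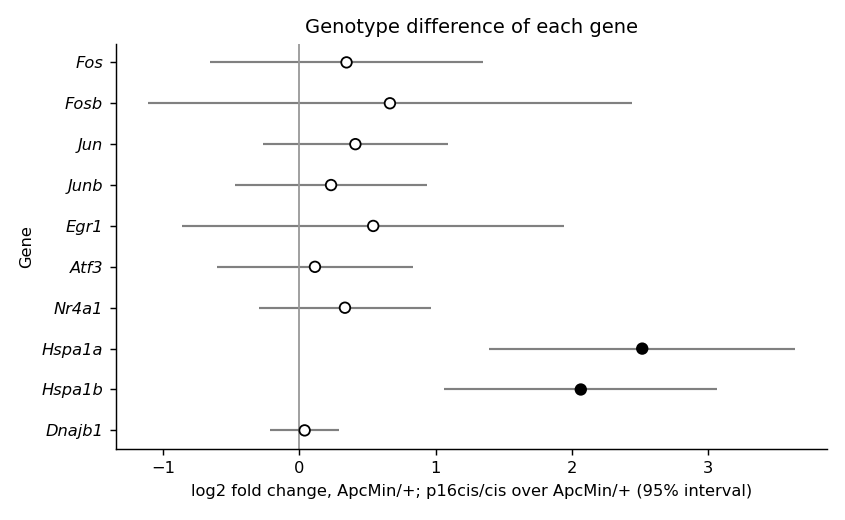
log2 fold change of each gene, p16cis/cis over ApcMin/+, with its 95% interval from limma. Filled points (Hspa1a at 2.52 and Hspa1b at 2.07) have an adjusted p under 0.05, and the other 8 intervals include 0.

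Among the immediate early genes, Fos and Fosb encode the Fos partner of AP-1, which binds DNA only as a dimer with a Jun protein. Fos (ENSMUSG00000021250.13) lies on the plus strand of chromosome 12 from 85473890 to 85477273 in GRCm38. Its RefSeq sequence before the start site, chr12:85473640-85473889 (GRCm38.p6, plus strand, 5′ to 3′), is shown for contrast with the Hsp70 pair. Capitals mark TGACG, the core of the site bound by Creb and Atf proteins.
Fos: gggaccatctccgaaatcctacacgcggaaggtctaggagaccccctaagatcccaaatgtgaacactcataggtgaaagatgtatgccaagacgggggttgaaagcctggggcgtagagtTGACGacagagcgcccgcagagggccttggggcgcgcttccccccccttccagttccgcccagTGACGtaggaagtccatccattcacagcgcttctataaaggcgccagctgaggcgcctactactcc
TGACG or CGTCA, on both strands, was present in this window of Fos, Fosb, Junb, Atf3, Nr4a1 and Dnajb1, 6 of the 9 genes with a window, and in 17.8% of all windows. The full element TGACGTCA (1.55% of all windows), the AP-1 site TGACTCA or TGAGTCA (4.46%) and the CArG box bound by Srf (1.47%) were in 0 of the 9. A window of this length does not cover more distant sequence.

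Fos stood at 2455, 1586, 3590, 7701 and 1262 normalized counts in ApcMin/+ mice 1 to 5, and at 2260, 2361, 4467 and 5585 in p16cis/cis mice 1 to 4. The p16cis/cis mice all lay inside the ApcMin/+ range, which spanned 6.10-fold from replicate 5 to replicate 4. The means were 3319 ± 2610 and 3668 ± 1633 (SD over 5 and 4 mice), and the log2 fold change was 0.35 with an SE of 0.46 (limma adjusted p = 0.639, 95% interval 0.635-fold to 2.55-fold). Fosb stood at 113, 50.4, 142, 1011 and 65.8 in ApcMin/+ mice 1 to 5, and at 111, 82.9, 607 and 442 in p16cis/cis mice 1 to 4. ApcMin/+ replicate 4 was the highest of all 9 and 20.1-fold above the lowest, so the log2 fold change of 0.67 had an SE of 0.82 (limma adjusted p = 0.609). Without that mouse the log2 fold change of Fosb was 1.37 (limma adjusted p = 0.0993) and that of Fos 0.73 (0.137).

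Jun and Junb encode the partners in AP-1, Jun as a strong activator of transcription and Junb as a weaker one. Jun stood at 2697, 1777, 2862, 5081 and 1516 normalized counts in ApcMin/+ mice 1 to 5, and at 2324, 2938, 4416 and 4325 in p16cis/cis mice 1 to 4. Junb stood at 2636, 1981, 3364, 4515 and 1461, and at 2509, 1887, 3991 and 4524. ApcMin/+ replicate 4 and p16cis/cis replicates 3 and 4 were the 3 highest for both genes and ApcMin/+ replicate 5 the lowest. The log2 fold changes were 0.41 (SE 0.31, limma adjusted p = 0.391) and 0.23 (SE 0.32, 0.655), within the spread of either genotype. Without ApcMin/+ replicate 4 they were 0.66 (limma adjusted p = 0.0615) and 0.43 (0.293), and without ApcMin/+ replicate 5 they were 0.23 and 0.027. Opposite-strand neighbors share 232 exon bases with Jun (Junos) and 173 with Junb (Prdx2), and their reads cannot be separated if counting ignored strand.

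Egr1 is a zinc finger factor induced through Srf and Elk proteins. It stood at 763, 403, 712, 3681 and 281 normalized counts in ApcMin/+ mice 1 to 5, and at 617, 601, 1548 and 2400 in p16cis/cis mice 1 to 4. ApcMin/+ replicate 4 exceeded all other mice and stood 13.1-fold above replicate 5 of its own genotype. The log2 fold change was 0.54 with an SE of 0.64 (limma adjusted p = 0.596), and 1.12 without that mouse (0.0795). In the 5 females alone, which leave that mouse out, the log2 fold changes of Fos, Fosb and Egr1 were 1.14, 1.70 and 1.49 (limma adjusted p = 0.0919, 0.166 and 0.128), short of the threshold. Jun, Junb and Nr4a1 had 0.92, 0.72 and 0.70 there (limma adjusted p = 0.0671, 0.244 and 0.258). In that fit 6 of the 10 genes described here had an unadjusted p under 0.05 in limma, beside 3780 of the 14410 genes tested.

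Atf3, a transcription factor induced by several kinds of stress, stood at 365, 219, 442, 386 and 318 normalized counts in ApcMin/+ mice 1 to 5, and at 226, 230, 460 and 741 in p16cis/cis mice 1 to 4. Of the p16cis/cis mice, replicates 3 and 4 lay above the ApcMin/+ range and the other 2 inside it, and the log2 fold change of 0.11 (SE 0.33, limma adjusted p = 0.842) was -0.23 without p16cis/cis replicate 4. Nr4a1, an orphan nuclear receptor induced with the AP-1 genes, stood at 209, 228, 231, 394 and 227, and at 225, 198, 521 and 431. ApcMin/+ replicate 4 and p16cis/cis replicates 3 and 4 again stood above the other 6 mice, which lay between 198 and 231, and the log2 fold change was 0.34 (SE 0.29, limma adjusted p = 0.458).

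Levels can be set beside each other per kb of exon. In ApcMin/+ mice, the mean normalized count per kb was 1411 for Fos, 1213 for Junb and 874 for Jun, then 346 for Dnajb1, 261 for Egr1, 161 for Atf3, 73.5 for Nr4a1, 44.3 for Fosb, 42.4 for Hspa1b and 7.39 for Hspa1a. In this order only Jun and Dnajb1, and Hspa1b and Hspa1a, are neighbors whose ranges over the 5 mice did not overlap. ApcMin/+ replicate 4 raised the means of Fosb and Egr1, at 162 and 821 per kb. The other ApcMin/+ mice lay between 8.07 and 22.8 per kb for Fosb and between 62.8 and 170 for Egr1. In p16cis/cis mice Hspa1b (165 per kb) stood near Atf3 (192 per kb), and Hspa1a (39.2 per kb) near Fosb (49.8 per kb). Fos stood at 1560 per kb in those mice.

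**Figure D3:**
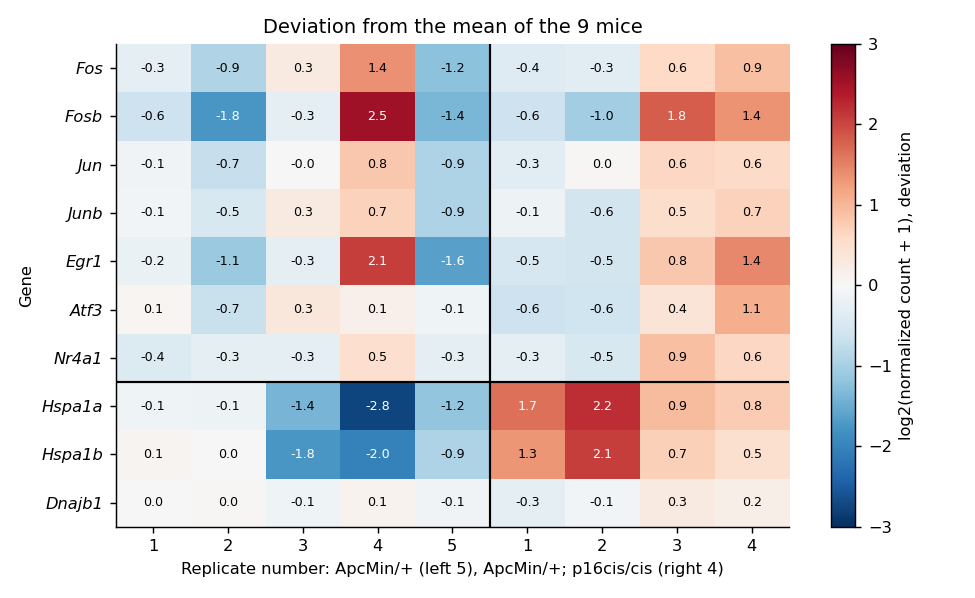
Deviation of log2(normalized count + 1) from the mean of the 9 mice, with genes in rows and mice in columns, the 5 ApcMin/+ mice to the left of the vertical line. The 7 immediate early genes above the horizontal line are high together in ApcMin/+ replicate 4 and p16cis/cis replicates 3 and 4, while Hspa1a and Hspa1b divide by genotype.

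The order of the mice was shared among the immediate early genes. p16cis/cis replicates 3 and 4 were among the 3 highest of 9 mice for 7 of 7 genes, and ApcMin/+ replicate 4 for 6 of 7. ApcMin/+ replicate 4 was the highest for 4 genes, and ApcMin/+ replicate 5 was the lowest for 4. The same ApcMin/+ replicate 4 was the lowest of 9 for Hspa1a and Hspa1b. Taking deviations from the genotype means, so that the genotype difference was removed, all 21 pairs of immediate early genes correlated positively over the 9 mice, with Pearson's r from 0.65 to 0.98 and a median of 0.89. All 14 pairs of an immediate early gene with Hspa1a or Hspa1b had a negative r, and the 7 pairs with Dnajb1 a positive one. These pairs share the same 9 libraries and size factors and are given as a description.

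Of these relations, 6 were tested by exact permutation of mice within genotype (two-sided, n = 9, Benjamini-Hochberg over the 6). Fos with Egr1 had r = 0.97 (p = 0.00139, adjusted 0.00278) and Spearman's rho = 0.93 (p = 0.00382, adjusted 0.00764), and without ApcMin/+ replicates 4 and 5, the mice farthest from the median of Fos, r was 0.93. Fos with Junb had r = 0.95 (exact permutation p = 0.00139, adjusted 0.00278) and rho = 0.93 (p = 0.00243, adjusted 0.00729), with r = 0.95 without those mice. Hspa1a with Hspa1b had r = 0.95 (exact permutation p = 0.000347, adjusted 0.00208) and rho = 0.95 (p = 0.000694, adjusted 0.00417), with r = 0.97 without ApcMin/+ replicates 1 and 4, a pair whose near-identical sequences can share reads.

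Fos and Hspa1a moved in opposite directions within the genotypes, less firmly than the pairs above. Their r was -0.80 (exact permutation p = 0.0267, adjusted 0.0401) with opposite signs of deviation in 8 of 9 mice, but rho was -0.70 (p = 0.0646, adjusted 0.0969). Without ApcMin/+ replicates 4 and 5, r was -0.88 (exact permutation p = 0.0556, n = 7), and without ApcMin/+ replicate 4 alone r was -0.56 (adjusted p = 0.279). The adjusted p also exceeded 0.05 when any 1 of 6 other mice was left out, and stayed under it only without ApcMin/+ replicate 1 or 5. Hspa1a with Dnajb1 had r = -0.38 (exact permutation p = 0.226, adjusted 0.271) and rho = -0.45 (p = 0.193, adjusted 0.232), with r = -0.38 without ApcMin/+ replicates 1 and 4. The mitochondrial share with Fos had r = -0.18 (exact permutation p = 0.628, adjusted 0.628) and rho = -0.033 (p = 0.947, adjusted 0.947), with r = 0.035 without ApcMin/+ replicate 1 and p16cis/cis replicate 2.

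**Figure D4:**
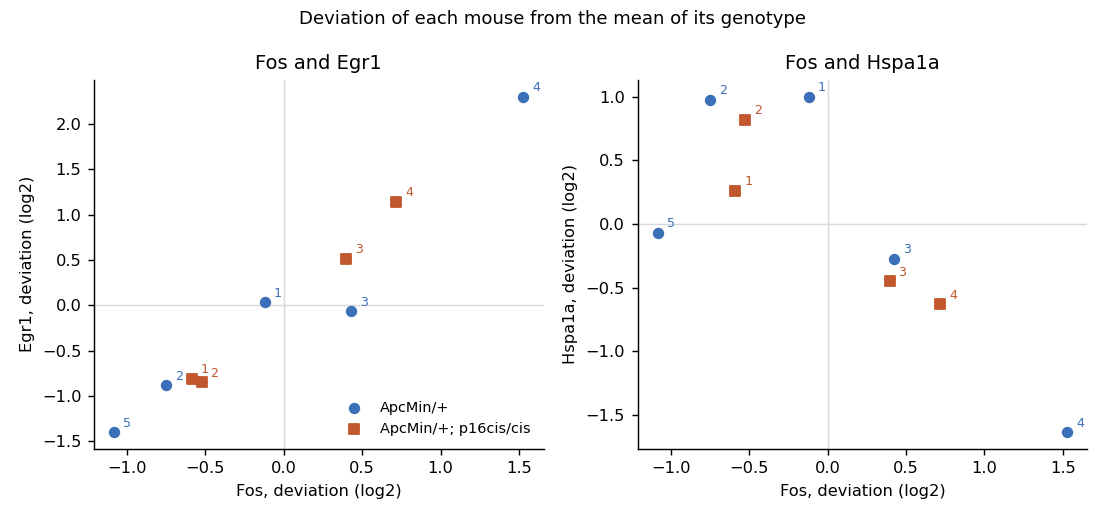
Each point is 1 mouse, placed by the deviation of its log2(normalized count + 1) from the mean of its genotype, for Fos on the x axis and Egr1 (left) or Hspa1a (right) on the y axis. Egr1 rose with Fos (r = 0.97), while Hspa1a fell with Fos (r = -0.80) with ApcMin/+ replicate 4 at the far end.

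Among all genes tested, the 5 with the highest r with Fos outside the 10 genes included Tmem9 (0.982), Ttc1 (0.981), RP23-402A24.3 (0.980) and Bicdl2 (0.979), measured on deviations from the genotype means over 9 mice. Jun stood at position 9 and Egr1 at position 11 of the 14410 genes in that order, Junb at 61 and Fosb at 112, with Nr4a1 at 1608 and Atf3 at 2200. In all, 318 genes other than Fos had r over 0.9 with it.

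The wider immediate early list held 57 further genes, of which 50 passed the filter. An adjusted p under 0.05 was reached by 4 higher and 4 lower genes of the 50, beside 8.14% of all genes tested that were higher and 8.75% that were lower, and the median log2 fold change of the list was -0.022. Gadd45g, a stress sensor of the growth arrest family, was 81 to 149 normalized counts in ApcMin/+ mice and 234 to 941 in p16cis/cis mice (log2 fold change 1.69, SE 0.35, limma adjusted p = 0.00953). Cebpd, a transcription factor of the acute phase response, was 451 to 793 and 908 to 1877 (1.22, SE 0.23, limma adjusted p = 0.00707). Sgk1, a kinase that promotes sodium uptake in the colon, was 3078 to 9226 and 1030 to 2561 (-1.28, SE 0.32, limma adjusted p = 0.0207). These 3 genes passed both thresholds without overlap between genotypes, but in females only Sgk1 (-0.49, limma adjusted p = 0.0868) and Cebpd (0.98, 0.104) did not pass. Fosl2, another member of the Fos family, was lower by less than the fold threshold (-0.56, SE 0.10, limma adjusted p = 0.00571). The other 4 that passed, named after their values were seen, were Myc (0.47) and Zfp36l1 (0.47), higher, and Klf6 (-0.64) and Rgs2 (-0.79), lower.

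Jund, Ier2, Dusp1, Zfp36 and Klf4, also of this list, did not pass. The log2 fold changes were 0.81 for Jund (limma adjusted p = 0.0885), 0.84 for Ier2 (0.119), 0.17 for Dusp1, a phosphatase of MAP kinases (0.782), 0.26 for Zfp36, which destabilizes mRNAs (0.579), and -0.43 for Klf4, a factor of mature colonocytes (0.200). Without ApcMin/+ replicate 4 the log2 fold changes of Jund and Ier2 were 1.08 and 1.16 (limma adjusted p = 0.00474 and 0.00468), and 7 of the 50 genes met both thresholds in place of 3, while the share of all genes that did so rose from 3.48% to 5.24%. Jund and Ier2 also passed in females only (1.23 and 1.38, limma adjusted p = 0.0303 and 0.0308).

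Of 35 further heat shock, chaperone and other stress genes, 31 passed the filter, and 0 met both thresholds in limma, in edgeR or in DESeq2. The shares of all genes tested that did so were 3.48%, 3.59% and 2.42%. In limma 10 of the 31 had an unadjusted p under 0.05, beside 4779 of all 14410 genes tested. At an adjusted p under 0.05, 2 were higher and 1 lower (3 of 31, beside 16.9% of all genes tested), all named after their values were seen, namely Dnajb5 (log2 fold change 0.83, limma adjusted p = 0.00993), Hspbp1 (0.51, 0.0232), an exchange factor of Hsp70, and Dnajb4 (-0.43, 0.0375). The median log2 fold change of the list was -0.16. Hspa8, the constitutive Hsc70, averaged 5878 ± 1482 and 5166 ± 805 (SD over 5 and 4 mice), a log2 fold change of -0.16 (limma adjusted p = 0.564). Hsp90aa1, the inducible Hsp90, had -0.33 (limma adjusted p = 0.350), and Hsph1, the Hsp110 chaperone, -0.16 (0.833). Without ApcMin/+ replicate 4, Hsp90aa1 passed at -0.55 (limma adjusted p = 0.0149) and 10 of the 31 genes had an adjusted p under 0.05 in place of 3, where the share of all genes rose from 16.9% to 24.2%. Without ApcMin/+ replicate 1 the estimate of Hsph1 was 0.12. Leaving out ApcMin/+ replicate 2 or 3 or p16cis/cis replicate 2 or 4 left 1 gene, with the share of all genes at 8.21% to 9.39%.

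Of 36 regulators that act upstream of both responses, 35 passed the filter, with a median log2 fold change of 0.050. In limma 0 met both thresholds, beside 3.48% of all genes tested, and 13 had an unadjusted p under 0.05, beside 4779 of 14410. In edgeR and DESeq2 1 met both thresholds, Hsf4, named after its values were seen, where the share of all genes was 3.59% and 2.42%. At an adjusted p under 0.05, 5 were higher and 5 lower (10 of 35, beside 16.9% of all genes tested). Hsf1, the factor that induces heat shock genes, was 550 to 753 normalized counts in ApcMin/+ mice and 960 to 1287 in p16cis/cis mice, without overlap (log2 fold change 0.68, SE 0.13, limma adjusted p = 0.00656, and 0.65 and 0.0538 in females only). Srf, which drives Fos and Egr1, was 962 to 1128 and 1052 to 1214 (0.09, SE 0.09, limma adjusted p = 0.546). Others that passed, named after their values were seen, were Ddit3 (0.81), Atf4 (0.55), Hsbp1 (0.42) and Mkl1 (0.39), higher, and, among the lower genes, Braf (-0.53), Rps6ka3 (-0.52) and Map2k1 (-0.43) of the MAP kinase pathway. Hsbp1 binds and restrains Hsf1, and Atf4 and Ddit3 belong to the integrated stress response. The count of 10 was 3 without p16cis/cis replicate 4, 4 without ApcMin/+ replicate 2, and 5 without ApcMin/+ replicate 3 or p16cis/cis replicate 2. In the same fits the share of all genes under that threshold fell from 16.9% to between 8.21% and 9.39%.

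**Figure D5:**
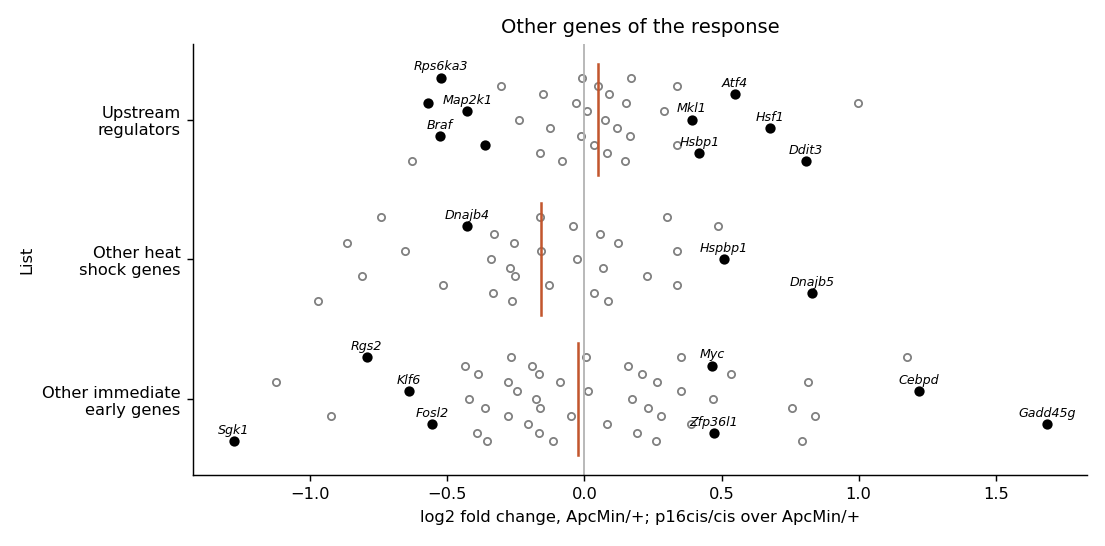
log2 fold change of each tested gene of the 3 wider lists, p16cis/cis over ApcMin/+, 1 point per gene, spread vertically only for legibility, with the list median as an orange line. Filled points, most of them named, have an adjusted p under 0.05, 8 of 50 immediate early genes, 3 of 31 heat shock genes and 10 of 35 regulators, beside 16.9% of all genes tested.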

How the data were processed

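The libraries came from colonic mucosa of 9 mice. The authors deposited 1 table of signal values, gene counts divided by 1 size factor per mouse with DESeq2, after alignment with BOWTIE2 and quantification with RSEM. Versions and the genome build are not given in the sources used here. Dividing by the value of 1 read gave whole reads, to within 0.01, for 100% of positive values. The deposited counts were tested with limma 3.58.1 (R 4.3.3, trended variances) on log2(normalized count + 1), a scale that understates changes of low genes, for the 14410 genes at 10 or more in at least 4 mice. Genotype was the single term. Intervals come from limma and cover the spread between mice, and none was computed from counting error alone. On the recovered reads, edgeR 4.0.16 called 252 genes higher and 265 lower, and DESeq2 1.42.0 called 296 and 430, beside 264 and 237 in limma. Single values were tested by exact permutation of mice between genotypes. Positions and exon lengths come from GENCODE M21 (GRCm38), whose identifier versions matched 52480 of 54146 rows. Promoter windows are from RefSeq (GRCm38.p6). There was 1 window or more for 9 of the 10 genes (not for Egr1), and only the 250 bases before the start site were searched. The procedure was tested on simulated data.

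The 10 genes and all lists were chosen with earlier results of these data known. Named are all 10 genes, list genes that met both thresholds (at most 6 per list), Jund, Fosl2, Ier2, Dusp1, Zfp36, Klf4, Hspa8, Hsp90aa1, Hsph1, Hsf1 and Srf, and the 5 genes most like Fos. Some genes that meet this rule or passed the test are not reported here. Alternatives were edgeR, DESeq2, TMM scaling, other filters and pseudocounts, sex or the mitochondrial share as a covariate, females only, a replicate block and each mouse left out. The sum of Hspa1a and Hspa1b and a correction for GC content and length (loess) were added after seeing the data.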

Additional observations from a re-analysis of the deposited data

Results flagged for a closer look

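In each genotype the highest and lowest mouse were compared with the others by the gap to the nearest mouse as a share of the range. This was Dixon's test at 95%, on normalized counts, and the check was not made on log2 values, where a high mouse stands out less. A mouse stood apart in 3 of 22 groups of values, where chance gives about 1.1 for independent groups. The groups are not independent, because Fosb, Egr1 and Nr4a1 moved together (Pearson's r from 0.79 to 0.95), so the excess cannot be weighed. In all 3 groups the mouse was ApcMin/+ replicate 4. Its normalized count of Fosb was 1011, where the other 4 ApcMin/+ mice lay between 50.4 and 142. Its Egr1 was 3681, against 281 to 763 in the others. Its Nr4a1 was 394, against 209 to 231. The same mouse was the lowest of 9 for Hspa1a and Hspa1b, and had the highest summed level of the epithelial markers, and the part of either in these values was not tested.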

How the results depend on the processing

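Over 22 alternative settings, Fos, Fosb, Jun, Egr1 and Nr4a1 stayed above 0 and short of an adjusted p of 0.05. Hspa1a and Hspa1b remained called in 20 of the 22 fits for each (Hspa1a was below the filter and so not tested at 10 or more in every mouse, which left 1 of the 10 genes called and with an adjusted p under 0.05), and their log2 fold changes ran from 2.11 to 2.77 and 1.76 to 2.32 with each mouse left out. They lost the call with the mitochondrial share as a covariate (1.58 and 0.77) and in females only (1.96 and 1.50). In those fits 0 of the 10 genes passed in limma, where 0% and 6.23% of all genes tested had an adjusted p under 0.05. At an unadjusted p under 0.05 in limma the counts were 0 and 6 of the 10, beside 798 and 3780 of 14410. In females only the exact permutation p was 0.1 for Hspa1a and 0.2 for Hspa1b, with 0.1 the smallest possible.

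Replicate numbers name different mice. Deviations of same-numbered mice correlated at -0.18, 0.066, 0.046 and 0.14. ApcMin/+ replicate 4 correlated best with its own number, and ApcMin/+ replicates 1 to 3 did not. Such correlations cannot tell whether same-numbered mice also share a batch. With a replicate block the log2 fold changes of Hspa1a and Hspa1b were 2.50 (limma adjusted p = 0.00835) and 2.07 (0.00527). The paired exact permutation p was 0.125, the smallest that 4 pairs allow. In the limma fit 1 gene of the wider heat shock and stress list, Mt1, met both thresholds, as did 3.28% of all genes tested. Jund (0.68, adjusted p = 0.0286), Ier2 (0.67, 0.0291) and Klf4 (-0.52, 0.0377) passed at an adjusted p under 0.05 with the block.

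Some estimates changed sign. Junb was -0.037, Dnajb1 -0.0058 and Srf -0.19 with the GC and length correction, Atf3 was -0.014 and Dnajb1 -0.0023 with sex as a covariate, and Dnajb1 was -0.052, Dnajb4 0.0081 and Klf4 0.38 with the mitochondrial share. With each mouse left out, Atf3 ran from -0.23 to 0.34, Dnajb1 from -0.040 to 0.13, Dusp1 from -0.063 to 0.43 and Hsph1 from -0.53 to 0.12.

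In limma 3 other immediate early genes, 0 heat shock genes and 0 regulators met both thresholds, and 8, 3 and 10 had an adjusted p under 0.05. The first counts ran from 2 to 7, 0 to 1 and 0 to 1 with each mouse left out, and were 0, 0 and 0 with the mitochondrial share. Of all genes tested, 3.48% met both thresholds in the main fit, 1.95% to 5.24% with each mouse left out, and 0% with that covariate. For regulators the count was 1 in edgeR with TMM, edgeR with RLE, DESeq2 and females only. There 3.59%, 3.59%, 2.42% and 1.98% of all genes tested met both thresholds. The counts at an adjusted p under 0.05 ran from 5 to 12, 1 to 10 and 3 to 14 with each mouse left out, and were 0, 0 and 0 with the mitochondrial share, 4, 5 and 4 in females only, 5, 1 and 6 with the GC and length correction, and 7, 1 and 5 with sex as a covariate. The share of all genes under that threshold was 16.9% in the main fit and 8.21% to 24.2% with each mouse left out. It was 0% with the mitochondrial share, 6.23% in females only, 12% with the GC and length correction and 9.97% with sex.

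The r of Fos with Hspa1a ran from -0.95 to -0.56 with each mouse left out and was -0.25 when the genotype means were kept in, and the r of Fos with the mitochondrial share was then 0.11. The cause of these changes was not tested. At 4 to 38 reads of Hspa1a in ApcMin/+ libraries, counting error limits the size of its fold change.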
